A study of Mus musculus with 6 samples.

Results

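The interferon-inducible GTPases described here are 10 genes of the GBP and IRG families: Gbp2, Gbp3, Gbp7, Igtp, Irgm1, Irgm2, Iigp1, Ifi47, Tgtp1 and Tgtp2. They were taken by gene symbol from the 18058 genes of the deposited expression table, all 10 were found there, and the rule uses no measured value. The table comes from RNA sequencing of whole brainstem from naive mice at 1 month of age, with 3 wild type (WT, C57BL/6J) libraries and 3 libraries labelled Rag1-/-, each from a separate mouse. The Rag1-/- strain carries the Rag1 tm1Mom allele on a C57BL/6 (B6) background, and because Rag1 encodes part of the recombinase that assembles antigen receptors, these mice lack mature T and B cells in every tissue. The study asked which brainstem transcripts differ in a host that permits the growth of human low-grade glioma cells, and mice of both sexes were used across its groups. Values are read counts scaled to the size of each library (CPM).

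Guanylate-binding proteins (GBPs) and immunity-related GTPases (IRGs) are large GTP-hydrolysing proteins of cell-autonomous immunity, which gather on the vacuoles of intracellular bacteria and parasites and help to break them open. Interferon gamma induces them through JAK-STAT signalling and IRF1, and type I interferons induce many of them through the ISGF3 complex, which holds STAT2 and IRF9. Among the IRGs, Irgm1, Irgm2 and Igtp are regulators that sit on the cell's own membranes and hold the effector IRGs inactive there, whereas Iigp1, Ifi47, Tgtp1 and Tgtp2 are effectors that load onto foreign vacuoles. In the uninfected brain their transcripts are often read as a sign of interferon tone.

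The letters of the genes show this division into regulators and effectors. The coding sequence of the nucleotide-binding loop (the P-loop, with the form Gly-X-X-X-X-Gly-Lys-Ser) is shown because the residue before its last serine separates the IRG classes, and the capitals mark the codon of that residue. It encodes methionine in the 3 regulators and lysine in the other 7 members. The sequences are from GENCODE transcripts on GRCm38, 5′ to 3′, with bases counted from the start of the coding sequence.
Irgm1 (bases 247 to 270): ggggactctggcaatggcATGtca
Igtp (bases 271 to 294): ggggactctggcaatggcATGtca
Ifi47 (bases 241 to 264): gggcagtctgggactggcAAGtcc
Tgtp1 (bases 187 to 210): ggggaaacaggcgcagggAAGtcc
Gbp2 (bases 133 to 156): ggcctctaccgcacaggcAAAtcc
Over these 24 bases Irgm2 was identical to Irgm1 and Igtp, and Tgtp2 was identical to Tgtp1.

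The promoters are shown because members that share an inducer can be compared by the letters before their start sites. RefSeq promoter windows (GRCm38.p6, 250 bases before to 50 bases after a start) were matched for 9 of the 10 members, and Iigp1 was not matched. Both strands were searched for the interferon-stimulated response element (ISRE, read as GAAA, any 2 bases and GAAA again) and for the gamma-activated site (GAS, read as TTCNNNGAA). An ISRE match was found in 8 of the 9 members and a GAS match in 5, against 3.44% and 8.30% of all 32851 windows of the same length. Both occurred in 1 window for the same 5 members, Gbp7, Igtp, Irgm2, Tgtp1 and Tgtp2, against 0.454% of all windows. The stretches run 5′ to 3′ on the strand of the gene, and the capitals mark the matches. For Gbp7 a further GAS match, at positions -106 to -98 from the start, lies before the stretch shown.
Gbp2 (chr3:142620594-142620623, plus strand): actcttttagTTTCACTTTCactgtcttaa
Gbp3 (chr3:142559992-142560021, plus strand): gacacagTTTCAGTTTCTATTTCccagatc
Gbp7 (chr3:142530241-142530300, plus strand): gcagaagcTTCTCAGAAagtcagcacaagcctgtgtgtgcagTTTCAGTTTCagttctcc
Irgm1 (chr11:48871428-48871457, minus strand): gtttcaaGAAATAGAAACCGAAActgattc
Igtp (chr11:58199507-58199535, plus strand): ccatTTCTAGGAActGAAACTGAAAgctg
Irgm2 (chr11:58214898-58214926, plus strand): ccatTTCCAGGAActGAAACTGAAAgctg
Tgtp1 (chr11:48992310-48992338, minus strand): ccatTTCCAGGAAtcGAAACTGAAAccta
Tgtp2 (chr11:49064269-49064297, minus strand): ccatTTCCAGGAAtcGAAACCGAAAccta
In Gbp3 and Irgm1 the capitals hold 2 ISRE matches that overlap, and in the GBPs the ISRE lies on the opposite strand. In the 4 IRG genes with both motifs, GAS and ISRE were separated by 2 bases. All matches lay between positions -106 and -15 from the start, and the window of Ifi47 held neither motif. A match describes letters only, and no binding was measured.

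The libraries were checked before the members were compared. The targeted gene Rag1 was at 0.236, 0.388 and 0.115 CPM in WT against 2.60, 4.02 and 2.90 CPM under the Rag1-/- label, so that it was higher, not lower, under the knockout label (log2 fold change 3.30, standard error 0.31, adjusted p = 0.012 by limma-trend). With 1 of the libraries labelled Rag1-/- left out, its adjusted p lay between 0.0687 and 0.191. For this reason the text speaks of libraries labelled Rag1-/-, and all directions below depend on that label being right. Xist, which is transcribed from the inactive X chromosome, reached 172 and 177 CPM in WT replicates 1 and 2 but 2.93 CPM in WT replicate 3 and no more than 0.738 CPM under the Rag1-/- label. Ddx3y, from the Y chromosome, had the opposite pattern, with 0.283 and 0.215 CPM in those WT replicates and 45.2 to 56.2 CPM in the other 4 libraries, so the split by sex-linked transcripts coincides with the genotype label except for WT replicate 3. Estimated depth was 31600000 to 46400000 reads per library, at which 1 CPM stands for 31.6 to 46.4 reads and a member rests on 30 to 395 reads. Neuron markers such as Snap25 (1500 to 1810 CPM) were high in every library, but replicate 2 labelled Rag1-/- stood apart in markers of the caudal brainstem. Hoxb3 was at 0.412 CPM there against 2.5 to 7.86 CPM in the other 5 libraries, Hoxa5 at 0.349 against 2.04 to 9.93 CPM and Slc6a5, the glycine transporter of inhibitory neurons, at 8.3 against 15.4 to 40.9 CPM. Without this library 4 members had an unadjusted p of at most 0.05 (10.3% of all tested genes), namely Gbp2, Gbp7, Irgm2 and Tgtp2, while Irgm1 was at -0.20 on the log2 scale with a p over 0.05, and the median of the members was -0.24. The part of this marker difference in the other results was not tested.

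All members were detected at low levels in every library. The summed level of the 10 genes was 35.4 to 40.6 CPM in WT brainstems and 31.5 to 34.8 CPM in the libraries labelled Rag1-/-. Per kilobase of transcript, the WT order began with the regulator Irgm1 at 3.58 ± 0.288 CPM per kb (SD, n = 3) and Igtp at 2.36 ± 0.366, followed by Gbp3 at 1.91 ± 0.158 and Irgm2 at 1.84 ± 0.111. Gbp2 and Gbp7 followed at 1.24 ± 0.0937 and 1.03 ± 0.137 CPM per kb. The effectors Ifi47, Tgtp1, Iigp1 and Tgtp2 were the 4 lowest, between 0.672 ± 0.252 and 0.327 ± 0.0598 CPM per kb. The places of Tgtp1 and Tgtp2 rest on separate values that are uncertain, and their sum was 0.990 ± 0.0688 CPM per kb. Neighbours in this order whose gap was within the larger SD were Gbp3 and Irgm2, Ifi47 and Tgtp1, and Tgtp1 and Iigp1.

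**Figure D1:**
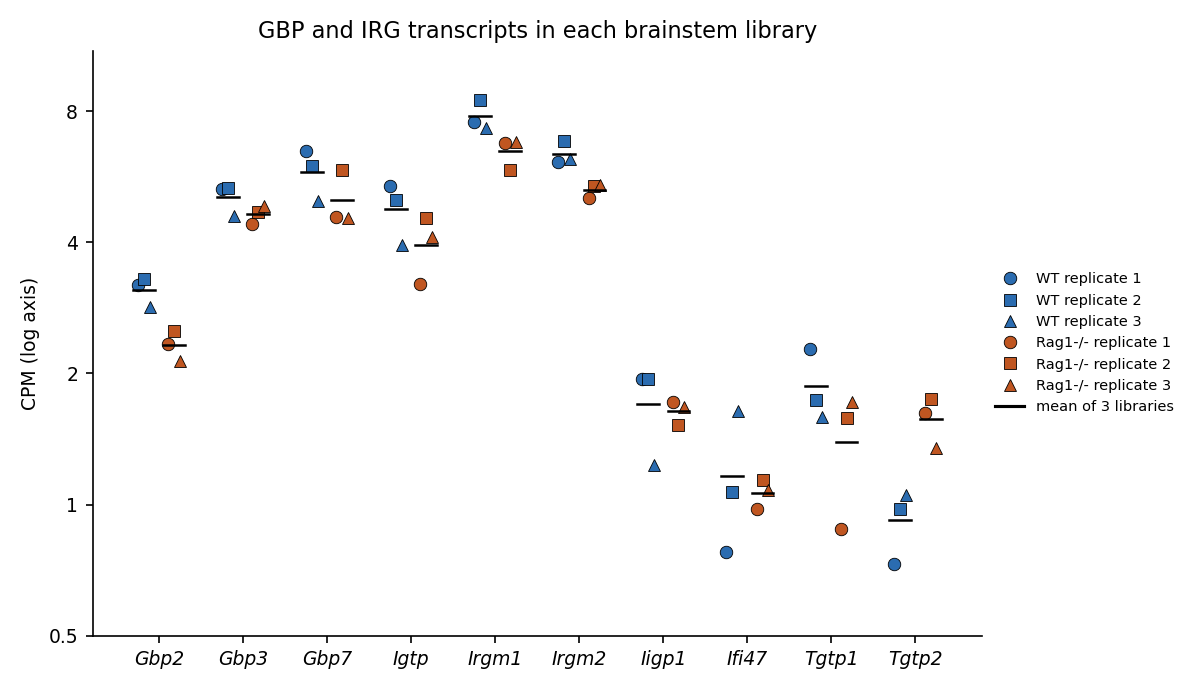
Level of each of the 10 GTPase genes in CPM (log axis) in the 3 WT libraries (blue) and the 3 libraries labelled Rag1-/- (orange), with a bar at each mean. Gbp2, Irgm1 and Irgm2 have every orange point under every blue point, Tgtp2 has every orange point above, and the other 6 members overlap.

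The comparison of genotypes was fitted on log2(CPM + 0.1), a scale that understates changes of low transcripts, with limma-trend over the 16762 genes whose mean reached 0.1 CPM. All 10 members were tested, and p-values were adjusted over all tested genes by the Benjamini-Hochberg method. None of the 10 had an adjusted p under 0.05 (lowest 0.327), where 0.0477% of all tested genes did (8 genes, of which the 6 lower ones are 0.0358%). At an unadjusted p of at most 0.05 there were 4 members, 3 lower (Gbp2, Irgm1 and Irgm2) and 1 higher (Tgtp2) in the libraries labelled Rag1-/-, where 9.29% of all tested genes were called lower and 2.27% higher. For the same 3 members, all values labelled Rag1-/- were below all WT values, which held for 14.4% of all tested genes (7.37% with median-of-ratios rescaling and 6.82% with quantile normalization, where the number of such members was also 3), and Tgtp2 was higher in every one, which held for 3.98%. The log2 fold change was below 0 for 9 of 10 members and for 67.7% of all tested genes, although Iigp1 was above 0 with median-of-ratios rescaling and both Iigp1 and Ifi47 were with quantile normalization. The median over the members was -0.24, against -0.05 over all tested genes. The balance of lower and higher genes depended on scaling: 80.4% of the 1938 genes at that unadjusted p were lower in CPM, and 45% of 1539 were after median-of-ratios rescaling (42.8% of 1495 after quantile normalization). With those scalings 2 members (Gbp2 and Irgm2) and 1 member (Gbp2) remained among the lower genes at that p, and Tgtp2 remained higher in both. In whole tissue, fewer cells of a type and less RNA per cell cannot be told apart.

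Among the 3 GBPs, Gbp2 was the member whose groups did not overlap. Gbp2 (chromosome 3, 142620663 to 142638008, plus strand), a GBP that targets the vacuoles of Toxoplasma, was at 3.19, 3.30 and 2.84 CPM in WT against 2.34, 2.5 and 2.13 CPM under the Rag1-/- label. The groups did not overlap, and the highest library labelled Rag1-/- was below WT replicate 3, the lowest WT library. The mean was 1.34-fold lower, 2.33 ± 0.185 against 3.11 ± 0.236 CPM (SD, n = 3), which is -0.40 on the log2 scale (standard error 0.12, 95% interval -0.69 to -0.12, unadjusted p = 0.0105, adjusted p = 0.349 by limma-trend). By an exact two-sided permutation test p was 0.1, the lowest that 3 samples against 3 allow. Over the 17 alternative settings and libraries left out, the log2 fold change of Gbp2 stayed between -0.47 and -0.28.

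Gbp3 and Gbp7 lie beside Gbp2 in the GBP cluster of chromosome 3. Gbp3 (142560044 to 142573213, plus strand) was at 5.30, 5.33 and 4.59 CPM in WT against 4.4, 4.69 and 4.83 CPM under the Rag1-/- label. WT replicates 1 and 2 were the highest, and WT replicate 3 lay among the libraries labelled Rag1-/-, so the groups overlapped (log2 fold change -0.13, 95% interval -0.36 to 0.11, adjusted p = 0.648 by limma-trend). Over the alternatives the log2 fold change of Gbp3 ranged from -0.19, without WT replicate 3, to 0.01, with a term for high Xist. Gbp7 (142530336 to 142550151, plus strand) was at 6.49, 5.97 and 4.97 CPM in WT against 4.58, 5.86 and 4.54 CPM under the Rag1-/- label. Here replicate 2 labelled Rag1-/- reached the WT range (log2 fold change -0.22, 95% interval -0.53 to 0.10, adjusted p = 0.561). The unadjusted p of Gbp7 was under 0.05 without WT replicate 3 (log2 fold change -0.32) and without replicate 2 labelled Rag1-/- (-0.33), whereas the log2 fold change was -0.13 without WT replicate 1 and -0.0032 with a term for high Xist. Gbp3 and Gbp7 share some sequence with each other and with further GBP genes, which covers 4.13% and 2.28% of their 50-base windows.

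The 3 regulator IRGs all had a log2 fold change of -0.27 or -0.26. Irgm1 (chromosome 11, 48865245 to 48871420, minus strand), a regulator that protects host membranes from effector IRGs, was at 7.55, 8.49 and 7.30 CPM in WT against 6.76, 5.86 and 6.78 CPM under the Rag1-/- label. The groups did not overlap, with WT replicate 2 the highest and replicate 2 labelled Rag1-/- the lowest. Its mean was 1.2-fold lower, or -0.26 on the log2 scale (standard error 0.098, 95% interval -0.49 to -0.04, unadjusted p = 0.026, adjusted p = 0.387 by limma-trend; exact permutation p = 0.1). Irgm2 (chromosome 11, 58214977 to 58222783, plus strand), a second regulator, was at 6.10, 6.81 and 6.20 CPM in WT against 5.06, 5.37 and 5.40 CPM under the Rag1-/- label. These groups did not overlap either, and the mean was 1.21-fold lower (log2 fold change -0.27, standard error 0.089, 95% interval -0.47 to -0.06, unadjusted p = 0.0164, adjusted p = 0.370; exact permutation p = 0.1). The unadjusted p of both genes was over 0.05 without WT replicate 2, as was that of Irgm2 without replicate 1 and that of Irgm1 without replicate 2 labelled Rag1-/-.

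Igtp (chromosome 11, 58199556 to 58207592, plus strand), the third regulator, lies next to Irgm2 in the genome. Its values were 5.37, 4.99 and 3.94 CPM in WT against 3.20, 4.54 and 4.11 CPM under the Rag1-/- label. WT replicate 3 lay below 2 of the libraries labelled Rag1-/-, so the groups overlapped. The log2 fold change was -0.27 with a standard error of 0.16 (95% interval -0.64 to 0.10, adjusted p = 0.542 by limma-trend). Without WT replicate 3 the log2 fold change was -0.40 and the unadjusted p under 0.05, whereas the log2 fold change was -0.13 without replicate 1 labelled Rag1-/- and -0.01 with the Xist term. Of the 50-base windows of Igtp, 10.1% occur in a transcript of another gene, Irgm2, so that reads of the neighbours can be shared.

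The effectors outside the Tgtp pair had small differences with wide intervals. Iigp1 (chromosome 18, 60376029 to 60392629, plus strand), an effector IRG whose protein is also called Irga6, was at 1.94, 1.94 and 1.23 CPM in WT against 1.72, 1.52 and 1.67 CPM under the Rag1-/- label. WT libraries were both the highest and the lowest, with WT replicate 3 under every library labelled Rag1-/- (log2 fold change -0.03, 95% interval -0.47 to 0.41, adjusted p = 0.970 by limma-trend). Ifi47 (chromosome 11, 49076587 to 49096987, plus strand), an effector IRG whose gene overlaps the olfactory receptor gene Olfr56, was at 0.779, 1.07 and 1.64 CPM in WT against 0.974, 1.14 and 1.08 CPM under the Rag1-/- label. Again the WT libraries spanned the others, but with WT replicate 3 as the highest (log2 fold change -0.06, 95% interval -0.63 to 0.50, adjusted p = 0.940). Across the 6 libraries the log2 values of Iigp1 and Ifi47 ran in opposite directions (Pearson r = -0.89), which is a description over the same 6 libraries, without a test.

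Tgtp1 and Tgtp2, effector IRGs with nearly identical coding sequences, showed the widest split among the members. Tgtp1 (chromosome 11, 48985329 to 48992246, minus strand) was at 2.28, 1.74 and 1.59 CPM in WT against 0.880, 1.58 and 1.72 CPM under the Rag1-/- label. Replicate 1 labelled Rag1-/- was the lowest library by far, and the groups overlapped (log2 fold change -0.43, 95% interval -1.01 to 0.14, adjusted p = 0.524 by limma-trend). Without that library the log2 fold change of Tgtp1 was -0.16. Tgtp2 (chromosome 11, 49057196 to 49064212, minus strand) was at 0.729, 0.978 and 1.05 CPM in WT against 1.62, 1.75 and 1.35 CPM under the Rag1-/- label. It was the only member higher in every library labelled Rag1-/-, 1.57 ± 0.201 against 0.919 ± 0.168 CPM (SD, n = 3), or 0.72 on the log2 scale (standard error 0.19, 95% interval 0.30 to 1.15, unadjusted p = 0.00425, adjusted p = 0.327; exact permutation p = 0.1).

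The 2 coding sequences have 1245 bases each, of which 1241 are identical (99.7%). Bases 676 to 735 of the coding sequence, from GENCODE transcripts on GRCm38 and 5′ to 3′, are shown because they hold 2 of the 4 differences, marked by capitals.
Tgtp1: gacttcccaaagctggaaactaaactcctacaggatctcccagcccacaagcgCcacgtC
Tgtp2: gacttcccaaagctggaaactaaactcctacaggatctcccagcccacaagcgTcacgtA
Of all 50-base windows of the transcripts, 89.4% for Tgtp1 and 90.6% for Tgtp2 occur in another gene's transcript, mostly each other's, against 0.782% to 10.1% for the other 8 members. How the authors' counting assigned reads that match both genes is not stated in the sources used here, so the separate values of Tgtp1 and Tgtp2 are uncertain.

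The sum of Tgtp1 and Tgtp2 does not depend on how reads were divided between them. It would still depend on whether shared reads were dropped or counted for both genes. The sum was 3.01, 2.71 and 2.64 CPM in WT against 2.5, 3.33 and 3.07 CPM under the Rag1-/- label. The libraries labelled Rag1-/- were both the lowest and the highest, and as 1 gene the log2 fold change of the pair was 0.08 (standard error 0.14, 95% interval -0.24 to 0.39, adjusted p = 0.845 by limma-trend). The share of Tgtp1 in the sum, a measure chosen after the values were seen, was 75.8%, 63.9% and 60.3% in WT and 35.2%, 47.4% and 56% in the libraries labelled Rag1-/-. Each share labelled Rag1-/- was below each WT share (46.2% ± 10.4 against 66.7% ± 8.08, SD, n = 3; exact two-sided permutation p = 0.1, the smallest possible). With the sum in place of the separate genes, 3 of 9 members had an unadjusted p of at most 0.05, all lower, where 11.6% of all tested genes had such a p in either direction.

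**Figure D2:**
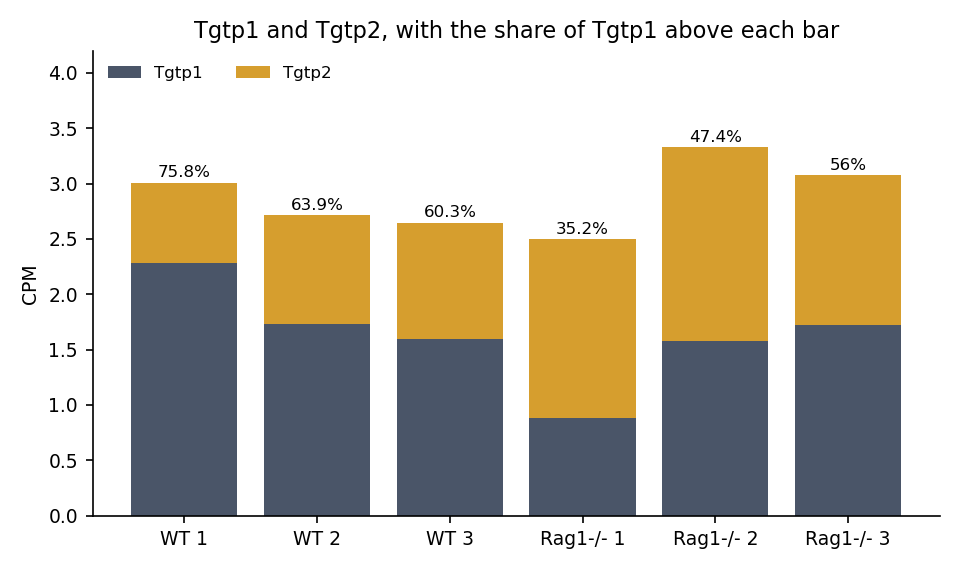
Stacked CPM of Tgtp1 (grey) and Tgtp2 (yellow) in each library, with the percentage of Tgtp1 above each bar. The sums overlap between the groups, while the share of Tgtp1 is 60.3% to 75.8% in WT and 35.2% to 56% in the libraries labelled Rag1-/-.

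Among the libraries, replicate 1 labelled Rag1-/- was the lowest for 4 members and WT replicate 2 the highest for 5. WT replicate 3, the WT library with low Xist, was the lowest WT library for 7 of 10 members. It lay above every library labelled Rag1-/- for 4 members (Gbp2, Irgm1, Irgm2 and Ifi47), which held for 41.9% of all tested genes, and below every one for Iigp1 and Tgtp2, which held for 20.8%. Without WT replicate 3, 8 of 10 members were lower in every library labelled Rag1-/- than in either remaining WT library, against 23.3% of all tested genes, and 6 had an unadjusted p of at most 0.05 (11.6% of all). When the fit had a term that marks libraries over 100 CPM of Xist, none of the 10 had an unadjusted p of at most 0.05 (16.3% of all) and the median log2 fold change was -0.09, but this fit compares WT replicate 3 alone with the libraries labelled Rag1-/-. Whether the differences in the members go with genotype or with sex cannot be told apart for WT replicates 1 and 2.

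**Figure D3:**
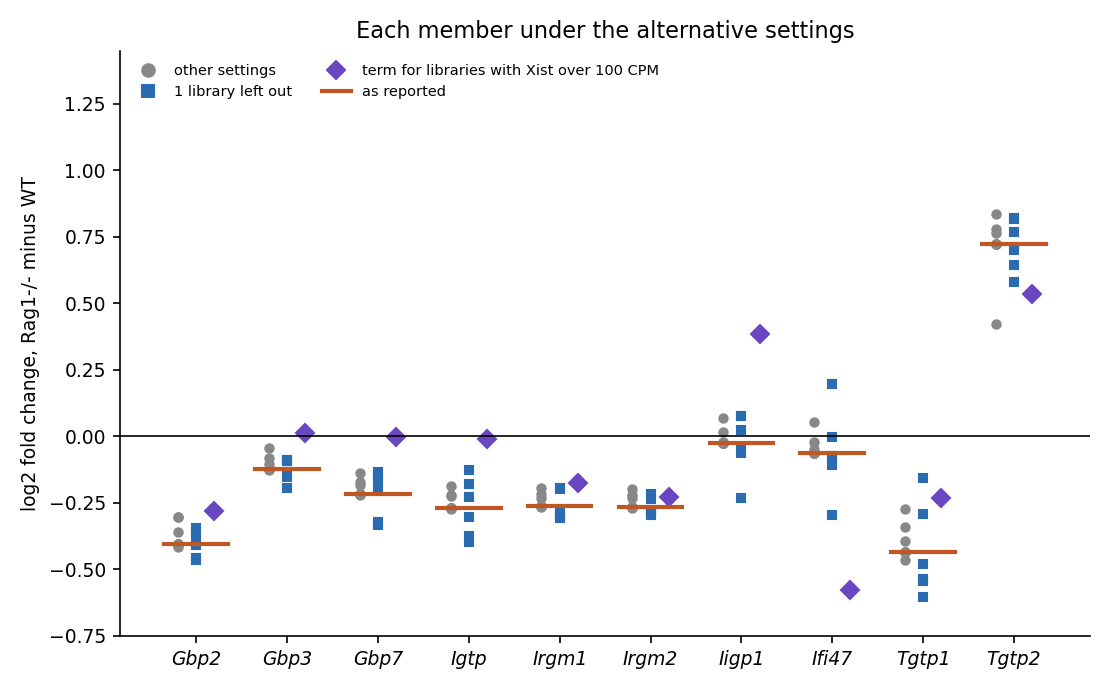
Log2 fold change (Rag1-/- minus WT) of each member as reported (orange bar), with 1 library left out (blue), with the Xist term (violet) and under the other settings (grey). Gbp2, Irgm1 and Irgm2 stay below 0 and Tgtp2 above 0 throughout, whereas Gbp3, Iigp1 and Ifi47 cross 0.

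Outside the 10 members, 17 of 20 further interferon-inducible GTPase genes were in the table and 15 were tested. None had an adjusted p under 0.05, and 4 had an unadjusted p of at most 0.05, all lower in the libraries labelled Rag1-/- (Gbp6, Gbp10, 9930111J21Rik2 and Mx1), where 9.29% of all tested genes were. The log2 fold change was below 0 for 10 of the 15, against 67.7% of all tested genes, with a list median of -0.11. Gbp6 was at 3.95, 4.70 and 4.66 CPM in WT against 3.01, 3.65 and 2.98 CPM under the Rag1-/- label, without overlap (log2 fold change -0.46, standard error 0.13, adjusted p = 0.335 by limma-trend). Gbp10 was at 0.624, 0.406 and 0.617 CPM against 0.319, 0.156 and 0.226 CPM, also without overlap (log2 fold change -0.97, standard error 0.28, adjusted p = 0.340). These levels of Gbp10 are not far above 0.0646 to 0.0950 CPM, the value of 3 reads, and reads of GBP paralogs can be shared. Irgq, an IRG-like gene, was at 115 to 118 CPM in WT and 114 to 116 CPM in the libraries labelled Rag1-/- (log2 fold change -0.02, 95% interval -0.10 to 0.06).

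**Figure D4:**
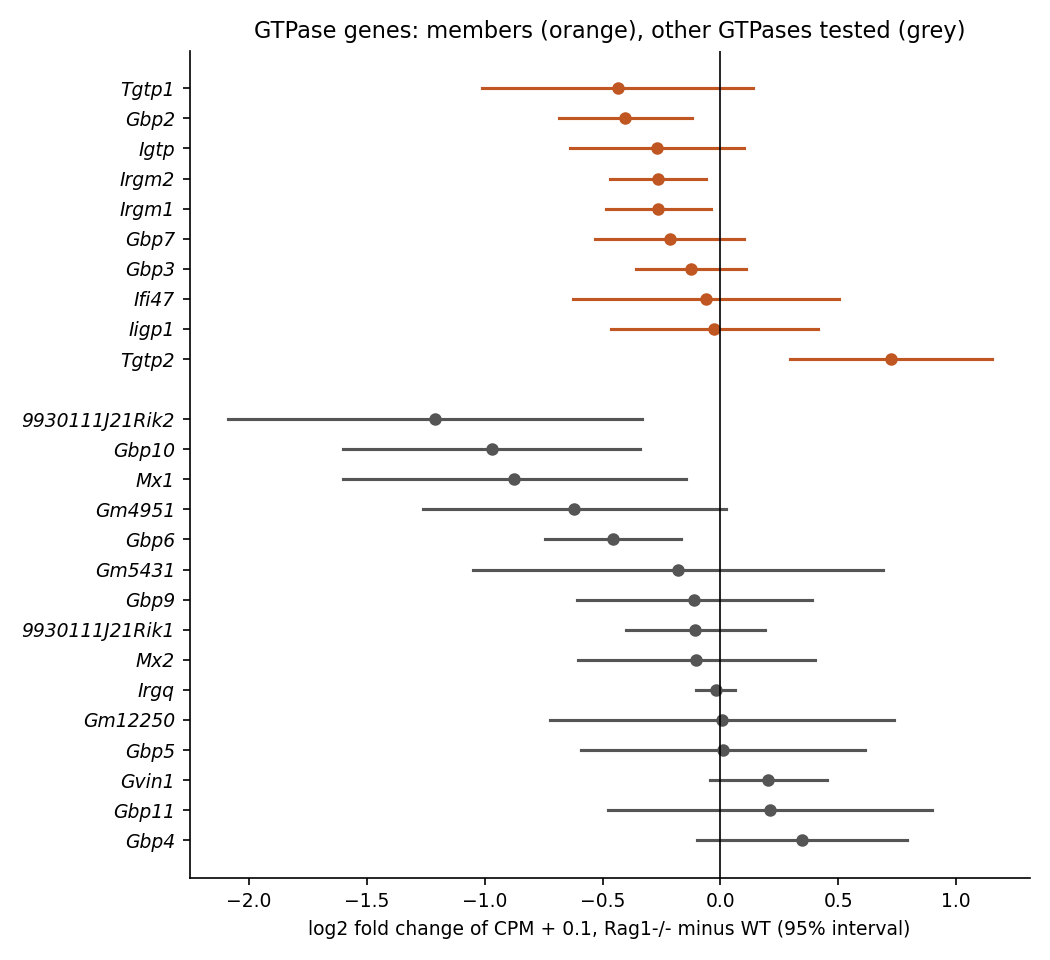
Log2 fold change of CPM + 0.1 (Rag1-/- minus WT) with 95% intervals for the 10 members (orange) and the 15 other GTPase genes tested (grey). The intervals of Gbp2, Irgm1 and Irgm2 lie below 0 and that of Tgtp2 above 0, with adjusted p of 0.327 to 0.387 for these 4.

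The interferon pathway that induces the GTPases was then examined from the receptor to other targets. The ligand genes Ifng and Ifnb1 are not analysed here. Ifngr1, the ligand-binding chain of the interferon gamma receptor, was at 17.6, 16.6 and 17.7 CPM in WT against 15.9, 14.4 and 14.9 CPM under the Rag1-/- label, without overlap (log2 fold change -0.20, adjusted p = 0.355 by limma-trend). Its partner chain Ifngr2 was at 34.3 to 35.4 CPM and 34.3 to 36.8 CPM, with overlap (log2 fold change 0.04, adjusted p = 0.799). Irf1, which binds ISRE, had a log2 fold change of -0.26 (adjusted p = 0.462), which was -0.15 without replicate 2 labelled Rag1-/-, and Nlrc5, the activator of MHC class I genes, one of -0.50 (adjusted p = 0.406). None of the 12 tested genes of this receptor, JAK-STAT and IRF list had an adjusted p under 0.05 by limma-trend, and 3 had an unadjusted p of at most 0.05, all lower, where 9.29% of all tested genes were.

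Genes of the type I interferon pathway and other targets were read beside the GTPases. Of 7 tested receptor and ISGF3 genes, 3 had an unadjusted p of at most 0.05, all lower (Irf7, Irf9 and Stat2), where 9.29% of all tested genes were lower at that p. Irf7, which amplifies type I interferon production, was at 5.76, 5.10 and 4.57 CPM in WT against 3.03, 2.5 and 3.10 CPM under the Rag1-/- label (log2 fold change -0.82, adjusted p = 0.165 by limma-trend). Among 22 type I target genes outside the GTPases, 16 had an unadjusted p of at most 0.05, all lower (9.29% of all tested genes), with a list median of -0.51. After adjustment 2 of them passed, Ifit3 and Oasl2 (adjusted p = 0.0443 each), where 0.0358% of all tested genes were lower. Among 17 tested interferon gamma targets outside the GTPases, the median was -0.34, 9 had an unadjusted p of at most 0.05, all lower (9.29% of all tested genes), and H2-D1, an MHC class I heavy chain, passed (adjusted p = 0.0443). All 3 of these calls were lost in 8 of 11 other settings (among them a pseudocount of 0.01, no filter on low values, both rescalings, limma without the trend, the replicate block and the Xist term). They were also lost without WT replicate 1, without WT replicate 2 and without replicate 1 or 3 labelled Rag1-/-, and those of Oasl2 and H2-D1 without replicate 2 labelled Rag1-/-, with adjusted p up to 0.338 in all. The log2 fold changes themselves stayed between -1.11 and -0.88 for Ifit3, -0.88 and -0.72 for Oasl2, and -0.51 and -0.43 for H2-D1 over the same settings and libraries left out. The chemokine gene Cxcl10, which shares the ISRE-driven induction of the GTPases, was at 0.850, 1.46 and 0.661 CPM in WT against 0.173, 0.349 and 0.370 CPM under the Rag1-/- label (log2 fold change -1.43, adjusted p = 0.289). Whether these genes and lists differ from the members was not tested.

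**Figure D5:**
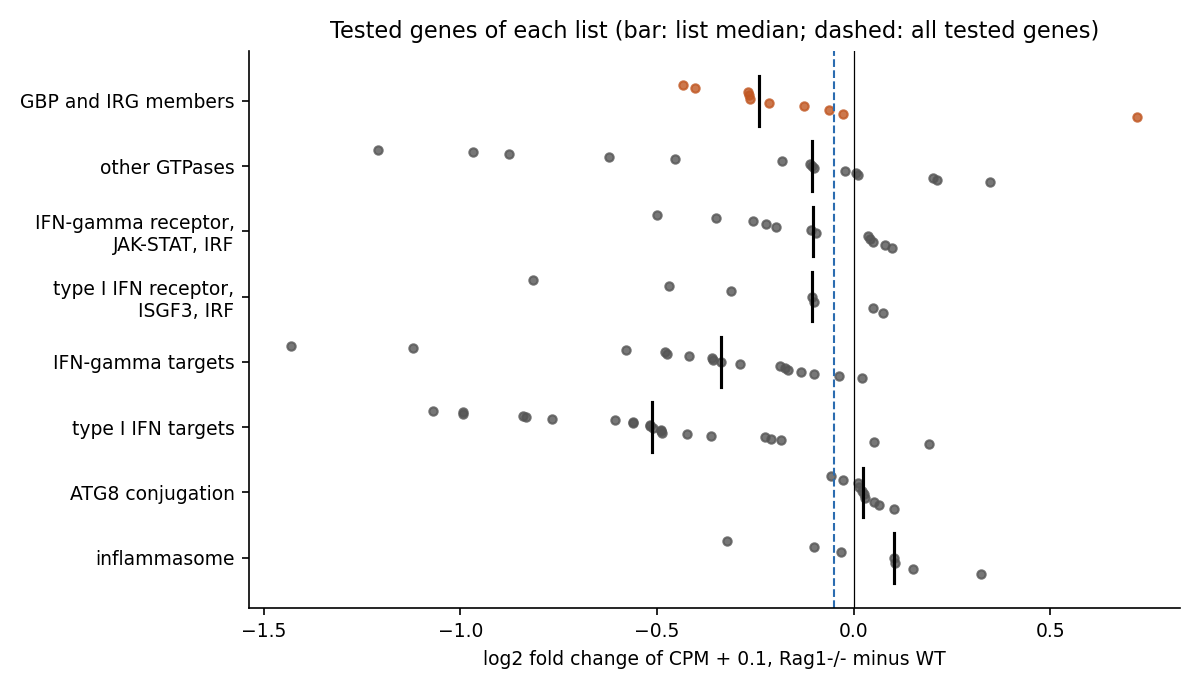
Log2 fold change of CPM + 0.1 (Rag1-/- minus WT) for each tested gene of the members and of 7 lists of related genes, with a bar at each list's median and a dashed line at the median of all tested genes (-0.05). The members' median is -0.24, that of the type I interferon targets -0.51 and that of the ATG8 conjugation genes 0.02.

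Cell types that express these GTPases were read from marker genes. For 12 microglia markers the sum was 367 to 402 CPM in WT and 363 to 390 CPM in the libraries labelled Rag1-/-, and 1 of 12 had an unadjusted p of at most 0.05, lower. Over all tested genes 9.29% were lower at that p and 2.27% higher. Border macrophage and monocyte markers summed to 14 to 20.5 CPM against 13.5 to 16 CPM (2 of 8 with an unadjusted p of at most 0.05, both lower), endothelial markers to 230 to 278 CPM against 247 to 271 CPM (1 of 10, lower), and astrocyte markers to 4260 to 4580 CPM against 4620 to 4770 CPM (1 of 8, higher). The largest part of the astrocyte sum was Slc1a2 (1520 to 1700 against 1730 to 1800 CPM). Gfap and Slc1a3, 2 of the 8, had a log2 fold change of -0.12 each. By immunostaining, which counts cells, the paper found fewer astrocytes in brainstems of this strain. Oligodendrocyte markers summed to 18700 to 21800 CPM in WT against 24200 to 25600 CPM, with all 6 genes higher in every library labelled Rag1-/- (3.98% of all tested genes) and at an unadjusted p of at most 0.05, though none passed after adjustment. Lymphocyte markers were low in both groups, and 3 of 12 T and NK cell markers (sum 1.08 to 2.13 CPM in WT against 1.07 to 1.51 CPM) and 3 of 6 B cell markers (1.53 to 1.67 against 1.3 to 1.77 CPM) were high enough to be tested, with Cd3e under the filter. The part of these cell types in the values of the GTPases was not tested.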

How the data were processed

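Brainstem RNA from 3 mice labelled WT and 3 labelled Rag1-/- was sequenced, with all libraries labelled with 1 run and lane. The authors demultiplexed the reads with bcl2fastq, aligned them with STAR 2.5.3a to mm10 with RefSeq transcripts, used Partek Flow to count reads per gene, and deposited 1 CPM value per gene and library, in which 0.0001 is the lowest value. Whether genes were removed first, and how reads matching several genes were counted, is not given in the sources used here. Coordinates are on mm10, with the end 1 base before the deposited stop.

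Depth was estimated from the step of 1 read among low values. Of values under 20 reads, 85.4% to 86.7% were whole within 0.1 read, which was too few to recover read counts, and no count test was run. Genes whose mean reached 0.1 CPM were tested with limma-trend, which the study's methods name (limma 3.58.1, R 4.3.3), on log2(CPM + 0.1), a pseudocount chosen here, with Benjamini-Hochberg adjustment, and the 1296 other genes were not tested. Exact permutation tests compared mean CPM.

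The members and lists were chosen with earlier results of these data known. Named genes are the members, Rag1, Xist and Ddx3y, the 3 smallest p of each pathway list, Ifng, Ifngr1, Ifngr2, Irf1, Nlrc5, Cxcl10, Irgq and the 5 genes most correlated with the members. Marker genes, Mx1 and Pycard are named outside this rule, after their values were seen, and some items of the rule are not reported here. Levels per kilobase used the mean length of the GENCODE transcripts matched to RefSeq, and coding sequences were aligned with Biopython 1.88. Alternatives were other pseudocounts, filters, scalings and variance models, a replicate block, a term for Xist, the Tgtp sum and leaving out each library.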

Additional observations from a re-analysis of the deposited data

How the results depend on the processing

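No member had an adjusted p under 0.05 in any of the 17 alternatives, where the lowest adjusted p of a member was between 0.265 and 0.726. The number of members with an unadjusted p of at most 0.05 was 4, and it was 2 with quantile normalization (8.92% of all tested genes), 0 with the Xist term (16.3%) and 2 to 6 with 1 library left out (2 without WT replicate 2, 6 without WT replicate 3, against 6.65% to 12.1% of all tested genes over these fits). The number lower in every library labelled Rag1-/- was 3, and 3 to 8 with 1 library left out (8 without WT replicate 3, against 19.1% to 23.5% of all tested genes over these fits). The members' median log2 fold change was -0.24, and it was -0.0936 with the Xist term and -0.295 to -0.143 with 1 library left out (-0.143 without replicate 1 labelled Rag1-/-). For these changes, the cause was not tested.

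Gbp3 was 0.0134 with the Xist term. Iigp1 was 0.0168 with median-of-ratios rescaling, 0.0691 with quantile normalization, 0.384 with the Xist term and 0.0763, 0.0769 and 0.0234 without WT replicate 1, WT replicate 2 and replicate 2 labelled Rag1-/-, and it ranged from -0.231 to 0.384 in all. Ifi47 was 0.0523 with quantile normalization and 0.196 without WT replicate 3, and ranged from -0.578 to 0.196. Irgq was 0.0245, 0.0129 and 0.00194 with median-of-ratios rescaling, quantile normalization and the Xist term. The other 7 members kept their sign, though Gbp7 was -0.00319 and Igtp -0.0112 with the Xist term.

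Samples with the same replicate number did not vary together (correlations of 0.0926, -0.22 and -0.0183 for replicates 1, 2 and 3). These values gave no sign of a pairing by number, but with 3 mice per group they cannot exclude one. With the replicate block, 3 members had an unadjusted p of at most 0.05 (8.1% of all tested genes), 0 members and 3 genes had an adjusted p under 0.05, and the median was -0.24. A member rests on 30 to 395 reads per library and 3 mice per group, and the intervals given with each value show the precision that these allow.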

Other observations

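Further lists hold genes that act beside or after the GTPases. None of the tested genes of the ATG8 conjugation system and of inflammasomes had an unadjusted p of at most 0.05 by limma-trend. Of all tested genes, 11.6% did. The ATG8 conjugation system, which places GBPs and IRGs on foreign vacuoles, was represented by 10 genes, and its median log2 fold change was 0.02. Atg12, which is conjugated to Atg5, was at 45, 41.8 and 42.8 CPM in WT against 48.3, 46.8 and 44.2 CPM under the Rag1-/- label, with overlap (adjusted p = 0.475 by limma-trend). Map1lc3a and Gabarap, of the ATG8 family itself, were higher in every library labelled Rag1-/-, where 3.98% of all tested genes were, with log2 fold changes of 0.06 and 0.05 (adjusted p = 0.543 and 0.605). In the same list 1 other gene was lower in every one, where 14.4% of all tested genes were. Of 7 tested inflammasome genes, which respond to material that GBPs release from bacteria, the median was 0.10. Il18, a cytokine that caspase-1 matures, and the adaptor gene Pycard, named after its values were seen, were higher in every library labelled Rag1-/-, with log2 fold changes of 0.11 and 0.15 (adjusted p = 0.605 and 0.672). Over the alternatives the log2 fold change of Il18 ranged from 0.05 to 0.16. Casp1, the inflammasome protease, was at 0.519, 0.539 and 0.431 CPM against 0.491, 0.729 and 0.740 CPM (adjusted p = 0.585), and Gsdmd, the pore former that it cleaves, at 1.39, 1.79 and 1.18 CPM against 1.30, 1.01 and 1.08 CPM (adjusted p = 0.536), both with overlap. Their log2 fold changes were 0.32 and -0.32, with Casp1 at 0.49 without replicate 1 labelled Rag1-/- and Gsdmd at -0.17 without WT replicate 2 and -0.06 with the Xist term.

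Over the 6 libraries, the mean of the members' z-scores was most like the log2 levels of Gm12359 (Pearson r = 0.993), Myo9a (0.992), Edem3, Ptprt and Creb1 (0.989 each), and 371 of 16752 other tested genes had r over 0.9. Only 6 points that share libraries and groups stand behind each r, and none of the 5 genes is an interferon target on the lists used. Among the members, Gbp3 and Igtp (r = 0.911) and Igtp and Tgtp1 (r = 0.906) had the highest values, and Tgtp2 had a negative r with all members except Ifi47 (0.229).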
